A study of Mus musculus with 8 samples.

Results

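The 10 genes described here are mouse counterparts of genes that are lost or mutated in human neuroblastoma, a tumour of the sympathetic nervous system. They were chosen by name, and each was read from the probe set with the highest mean among those annotated to that symbol alone. All 10 had such a probe set, among 22180 genes read in the same way. Chd5, Camta1, Kif1b, Casz1 and Arid1a stand for the short arm of human chromosome 1 (band 1p36), Cadm1 and Dlg2 for the long arm of chromosome 11, Ptprd for the short arm of chromosome 9, Arid1b for chromatin remodelling and Nf1 for Ras signalling. Expression was measured on 8 arrays, 1 for each of 8 primary subcutaneous tumours that form 1 group (n = 8). Their source was mouse neural crest cells transduced with N-Myc. They are labelled N-Myc; p53mixed, because the cells were a mixture of p53+/- and p53-/- cells. About 10000 cells were injected 48 hours after infection into nude mice or C57Bl/6 mice, and tumours were removed after about 50 days. The labels do not say which host or which p53 genotype each tumour had, nor that each came from a separate animal or culture. The p-values therefore measure the spread between these 8 samples. No normal tissue was analysed here, so a loss relative to normal cells cannot be read from these values.

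In human neuroblastoma, deletions of these chromosome arms remove 1 copy of many genes at once, and the search for the gene that matters in each region produced the candidates above. A suppressor can lose activity through deletion, mutation or silencing, and deletion and silencing lower its RNA. In sympathetic neuroblasts several of the candidates also serve as neuronal genes, and the RNA of such genes can follow the state of the cell as well as the number of copies.

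The labelled cell type was checked first. Isl1 and Hand2, transcription factors of sympathetic neurons, and Th, the first enzyme of catecholamine synthesis, averaged 11.32 ± 0.46, 10.57 ± 0.35 and 10.05 ± 0.91 (mean ± SD of log2 levels, n = 8). Each had its lowest level in tumour 6, where Dbh, which makes noradrenaline, was at 5.72 against 10.15 ± 1.88 over all 8. Of the other sympathoadrenal markers, Tfap2b (4.88), Gata2 (5.45) and Slc18a1 (5.14) lay below the background of that array (5.54). Ddc (5.61), Slc6a2 (5.67) and Gata3 (6.93) lay above it. Mycn was at 6.65 ± 0.34 and above background in 8 of 8 tumours, from 5.99 in tumour 6 to 7.11 in tumour 3. No source used here says whether its probe set reads the introduced N-Myc. Fibroblast and pericyte genes (10 of 12 measured), macrophage genes (10 of 10), endothelial genes (7 of 8) and skeletal muscle genes (5 of 8) were detected as well, beside 57.3% of all genes. The muscle share of 62.5% is close to that. In such bulk samples fewer cells of a type and less RNA per cell cannot be told apart. The detected muscle genes had a mean deviation of -1.04 in tumour 4 and 1.32 in tumour 6 (log2, from their mean over the 8 tumours). The sarcomere genes Myh4 and Mylpf and Myod1, the transcription factor that defines muscle precursors, were not detected by their means over the 8 tumours. In tumour 6, however, Myh4 was at 8.96 and Mylpf at 6.46, above the background of that array (5.54). Mylpf was also above background in tumours 3 and 8 (5.94 and 6.13). Array medians lay between 5.63 and 5.75, and the number of arrays limits the precision.

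The sequences just upstream of the start sites are shown for 3 of the genes, because Chd5 and Kif1b had high and low tumours in common and Dlg2 was close to background. The sequences come from a set of RefSeq promoter windows (build GRCm38.p6). The set used here held 8 of the 10 genes, all but Cadm1 and Ptprd, with 14 start sites in all. The 250 bases before the start are printed 5′ to 3′, with each GC box (GGGCGG on either strand, the core of sites bound by Sp1) in capitals. Chd5 and Kif1b had 2 listed starts each and Dlg2 had 3, and the window with the lowest coordinates is printed.
Chd5, chr4:152338401-152338650, forward strand: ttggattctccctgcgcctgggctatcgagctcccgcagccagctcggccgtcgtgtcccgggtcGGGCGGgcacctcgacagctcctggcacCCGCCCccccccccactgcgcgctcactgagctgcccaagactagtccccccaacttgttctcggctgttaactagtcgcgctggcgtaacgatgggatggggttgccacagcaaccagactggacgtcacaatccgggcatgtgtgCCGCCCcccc
Kif1b, chr4:149307699-149307948, reverse strand: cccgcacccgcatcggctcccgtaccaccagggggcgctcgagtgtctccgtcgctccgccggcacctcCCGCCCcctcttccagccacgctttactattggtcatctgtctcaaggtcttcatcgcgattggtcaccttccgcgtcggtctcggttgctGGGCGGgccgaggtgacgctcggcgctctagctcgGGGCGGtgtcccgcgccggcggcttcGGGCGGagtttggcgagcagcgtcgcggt
Dlg2, chr7:91090536-91090785, forward strand: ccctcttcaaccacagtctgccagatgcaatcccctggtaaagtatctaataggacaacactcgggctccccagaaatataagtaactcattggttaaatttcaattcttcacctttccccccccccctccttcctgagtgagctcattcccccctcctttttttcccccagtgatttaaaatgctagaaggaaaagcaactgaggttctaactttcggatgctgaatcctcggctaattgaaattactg
The Chd5 window held 21 CpG dinucleotides and 3 GC boxes, the Kif1b window 35 and 4, and the Dlg2 window 3 and 0. The median over all 32851 listed start sites was 6 CpG dinucleotides, and 32.7% of them held a GC box. Among the 14 start sites of these genes, 8 held a GC box, in Chd5, Camta1, Kif1b, Arid1a and Arid1b. The 2 Chd5 windows overlap, as do the 2 Kif1b windows, so the 14 are not independent. The E-box CACGTG, a sequence bound by Myc family proteins, was in 0 of the 14 and in 6.02% of all start sites. These matches describe letters in a window and say nothing of binding.

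**Figure D1:**
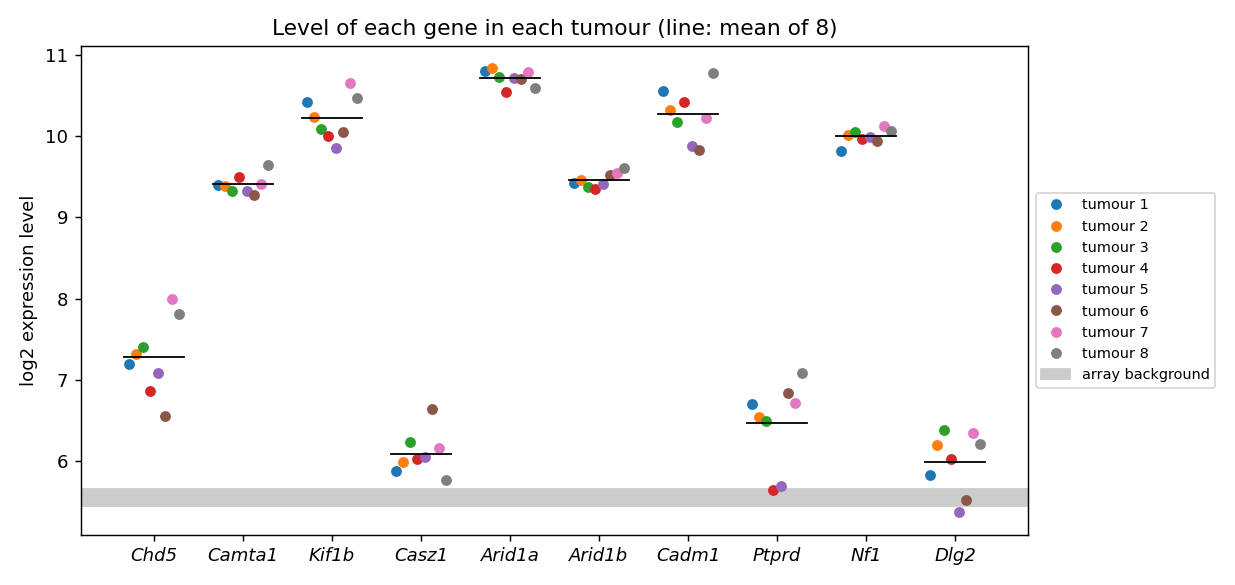
Log2 expression level (vertical axis) of the 10 genes in each of 8 tumours (coloured points), with the mean as a line and the range of the array backgrounds as a grey band. Points are comparable within a gene and not between genes; Casz1, Ptprd and Dlg2 lie near the band, and Ptprd is lowest in tumours 4 and 5 (5.64 and 5.70).

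The first comparison asks which of the genes were expressed. Receptor genes for odorants, pheromones and bitter taste, which are not expected in such tumours, gave the background: 95% of their 1435 probe sets lay below it on each array. It was between 5.45 and 5.66. All 10 genes averaged above it with a limma adjusted p under 0.05 (Benjamini-Hochberg over 22180 genes), where 57.3% of all genes did. For 7 of them the margin was wide, from 1.69 (SE 0.15) for Chd5 to 5.13 (SE 0.055) for Arid1a on the log2 scale (limma adjusted p = 2.73e-07 and 1.59e-15). Casz1 averaged 0.50 (SE 0.098), Ptprd 0.88 (SE 0.17) and Dlg2 0.40 (SE 0.12) above background (limma adjusted p = 0.000377, 0.000461 and 0.0097). Against a background set at the 99th percentile instead, these 3 lay below it, at -0.50, -0.13 and -0.61, so their detection depends on the level chosen.

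The chromatin remodellers Arid1a and Arid1b and the Ras inhibitor Nf1 were nearly constant from tumour to tumour. Arid1a, a DNA-binding subunit of the BAF (SWI/SNF) remodelling complex, ranged from 10.55 in tumour 4 over a median of 10.72 to 10.84 in tumour 2. Its paralogue Arid1b, which takes the same place in the complex, ranged from 9.35 in tumour 4 over 9.44 to 9.61 in tumour 8. Nf1, which encodes neurofibromin, a GTPase activating protein that switches Ras off, ranged from 9.82 in tumour 1 over 10.01 to 10.13 in tumour 7. The highest and lowest tumours thus differed 1.22-fold, 1.20-fold and 1.24-fold. The SDs of 0.099, 0.092 and 0.093 were larger than those of 3.65%, 2.67% and 2.83% of detected genes. Set against the median of the other 7 tumours, the lowest tumour of these 3 genes lay at most 0.20 below it (Nf1 in tumour 1, -0.20).

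Camta1, a calmodulin-binding transcription activator of neurons, was also steady. It ranged from 9.27 in tumour 6 over a median of 9.39 to 9.65 in tumour 8, an SD of 0.12 that exceeded 7.48% of detected genes. Kif1b, a kinesin motor that carries mitochondria and synaptic vesicle precursors along axons and has been linked to neuroblast apoptosis, varied more. It was at 9.86 in tumour 5, at a median of 10.16 and at 10.65 in tumour 7, a 1.73-fold range (SD 0.27).

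Of the 10 genes, Chd5 and Ptprd differed most between tumours. Chd5, a neuronal remodelling ATPase of the NuRD type, had its lowest level in tumour 6 (6.56), followed by tumour 4 (6.87) and tumour 5 (7.08). Tumours 1, 2 and 3 followed at 7.19, 7.32 and 7.40 and tumours 8 and 7 at 7.81 and 7.99. The highest tumour stood 2.71-fold above the lowest, and the values were spread over the range rather than split by a gap. This level comes from 1 of 2 probe sets annotated to Chd5; the other averaged 5.20 ± 0.26 (SD, n = 8) and was above background in 1 of 8 tumours, so the probe sets disagree. The mean of both lay 0.65 above background in place of 1.69.

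Ptprd, a receptor-type tyrosine phosphatase that also acts as a synaptic adhesion molecule, was split by a gap. It was at 5.64 in tumour 4 and 5.70 in tumour 5, near the backgrounds of 5.66 and 5.63 on those arrays. The other 6 tumours lay between 6.49 and 7.09, with the highest level in tumour 8. Over all 8 the SD was 0.52. A limit on the SD was taken from the receptor genes, 99% of which lay below 0.41. It was exceeded by 14.6% of detected genes and by 2 of the 10 candidates, Chd5 (0.47) and Ptprd. The count of 2 of 10 is close to that background. Without tumour 6, without tumour 7 or with the mean of both Chd5 probe sets, Ptprd alone remained above the limit.

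Casz1, Cadm1 and Dlg2 lay between these groups. Casz1, a zinc finger transcription factor that promotes neural differentiation, was at 6.64 in tumour 6, against 5.77 to 6.23 in the other 7 tumours. It was thus highest in the tumour in which Chd5 and the catecholamine gene Dbh were lowest. Cadm1, an immunoglobulin-type cell adhesion molecule, was at 9.83 in tumour 6 and 9.88 in tumour 5, at a median of 10.27 and at 10.78 in tumour 8, a 1.94-fold range. Dlg2, a scaffold protein of synapses, was at 5.37 in tumour 5 and 5.52 in tumour 6, both below the background of those arrays (5.63 and 5.54). The remaining 6 tumours were above background, with the highest Dlg2 level in tumour 3 (6.39).

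**Figure D2:**
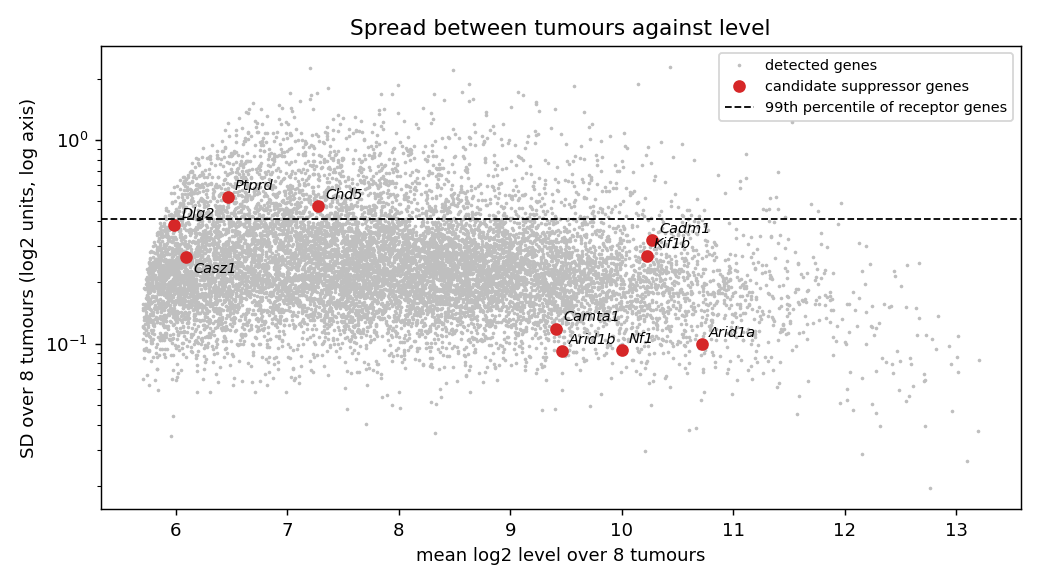
SD over the 8 tumours (log axis, log2 units) against mean log2 level for every detected gene (grey) and the 10 candidates (red), with the SD limit taken from receptor genes, 0.41, as a dashed line. Chd5 and Ptprd lie above the line; Arid1a, Arid1b, Nf1 and Camta1 lie at the lower edge of the cloud.

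The second comparison asks whether a candidate varied together with markers of a cell type. Each candidate was set against the mean of 5 marker lists over the 8 tumours, which gives 50 relations with exact two-sided permutation p-values (smallest possible 4.96e-05). Chd5 rose with the mean of the neuron list of 15 detected genes, which holds cytoskeletal and synaptic genes such as Tubb3, Gap43 and Syp. Pearson's r was 0.91 (exact permutation p = 0.000372, adjusted over the 50 relations p = 0.0186) and Spearman's rho 0.95 (exact permutation p = 0.00114, adjusted p = 0.057). With the 2 tumours at the extremes of the list left out (those farthest from its median), r was 0.95. In this unscaled mean, genes with a large SD weigh more, such as Prph (SD 0.98), Elavl4 (0.59) and Syt1 (0.59). Not every gene of the list followed Chd5. Gap43 was lowest in tumour 6 (10.55) and highest in tumour 8 (11.88), but Tubb3 was highest in tumour 1 (12.32). Syp was lowest in tumour 5 (9.73) and Scg2 in tumour 8 (7.86). The neuron list was lowest in tumour 6 (-0.61 from its mean, log2) and highest in tumours 8 and 7 (0.31 and 0.26), the tumours that also had the extreme Chd5 levels. Skeletal muscle genes were likewise highest in tumour 6 (1.32) but also high in tumour 8 (0.92), and their part in the Chd5 and Casz1 values was not tested.

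The call on Chd5 depended on the number of relations and tumours counted. Adjusted over all detected genes in place of the 50 relations, the same exact permutation p became 0.0816. Leaving out any 1 tumour kept r between 0.89 and 0.95, but the adjusted exact permutation p stayed under 0.05 only when tumour 1 was left out (0.0496) and ran up to 0.444 without tumour 8. With the mean of both Chd5 probe sets, r was 0.86 and the adjusted exact permutation p 0.122. Against the neuron list 4 of the 10 candidates had an unadjusted exact p under 0.05, namely Chd5, Casz1, Cadm1 and Dlg2, and so did 16.8% of all detected genes. Casz1 ran the other way (r = -0.79, exact permutation p = 0.0371), with r of -0.25 without tumour 6 and 0.32 with the same 2 tumours left out. Leaving out those 2 took Cadm1 from r = 0.70 to 0.18, Camta1 from 0.62 to -0.083 and Dlg2 from 0.70 to 0.65. It took Kif1b from 0.64 to 0.91, Ptprd from 0.19 to 0.88, Arid1b from 0.22 to 0.80 and Arid1a from 0.12 to 0.66, and Nf1 went from 0.43 to 0.41. Apart from Chd5, no candidate passed against the neuron list after adjustment.

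**Figure D3:**
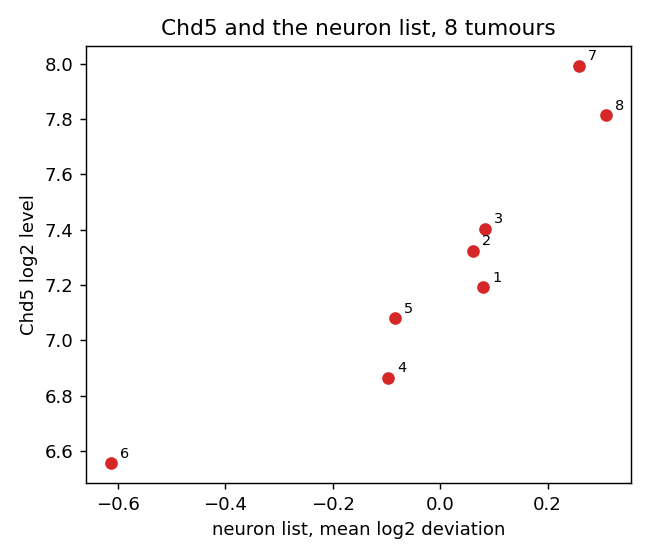
Chd5 log2 level (vertical axis) against the mean log2 deviation of 15 neuron genes (horizontal axis), with each of the 8 tumours as a numbered point. Tumour 6 is lowest on both axes and tumours 7 and 8 are highest (r = 0.91).

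Casz1 ran against the sympathoadrenal list of 10 detected genes, with r of -0.90 (exact permutation p = 0.00831, adjusted over the 50 relations p = 0.208). That relation rested on the tumours at the extremes of the list, and r was -0.35 once those 2 were left out. The list was at -2.40 in tumour 6, and without that tumour alone r was -0.63 (exact permutation p = 0.132). The rho of -0.71 (exact permutation p = 0.0576) did not pass either. Unadjusted, 2 of the 10 candidates, Chd5 and Casz1, had an exact p under 0.05 against this list, beside 17.2% of detected genes. Against the fibroblast and pericyte list and the dividing cell list the count was 0 of 10, beside 5.95% and 4.49% of detected genes. The glia list split the tumours, with 2.07 in tumour 4 and 1.41 in tumour 6 against 0.06 or less in the others, so no r over all 8 is given for it. Unadjusted, 1 of the 10 candidates, Arid1a, had an exact permutation p under 0.05 against it, beside 10.4% of detected genes. That exact permutation p (0.0409, adjusted over the 50 relations p = 0.320) uses all 8 tumours and so carries the same split. Without tumours 4 and 6, the 2 farthest from the median of the list, r for Arid1a was -0.69.

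Among the 45 pairs of candidates, 35 had a positive r, and none passed after adjustment over the pairs (lowest adjusted exact permutation p = 0.175, with 5 unadjusted below 0.05). The same shares over pairs of all detected genes were not computed, so these counts are not read as particular to the candidates. The largest r was that of Camta1 with Cadm1, at r = 0.87 (exact permutation p = 0.00389) and rho = 0.86 (exact permutation p = 0.0107). Both genes were lowest in tumour 6 and highest in tumour 8. Leaving out the 2 most extreme tumours for Camta1 gave r = 0.64. By rank the strongest pair was Arid1b with Ptprd, at rho = 0.93 (exact permutation p = 0.00223, adjusted over the pairs p = 0.1004) and r = 0.77 (exact permutation p = 0.0293), with r = 0.67 once the 2 most extreme tumours for Arid1b were left out. Casz1 and Cadm1 ran in opposite directions (r = -0.81, exact permutation p = 0.0115; rho = -0.90, exact permutation p = 0.00456), with r = -0.54 once the 2 most extreme tumours for Casz1 were left out. Chd5 and Kif1b, whose upstream sequences are printed above, had r = 0.78 (exact permutation p = 0.0252) and rho = 0.81 (exact permutation p = 0.0218), with r = 0.68 once the 2 most extreme tumours for Chd5 were left out. The BAF paralogues Arid1a and Arid1b had r = 0.041 (exact permutation p = 0.924) and rho = 0.12 (exact permutation p = 0.793).

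**Figure D4:**
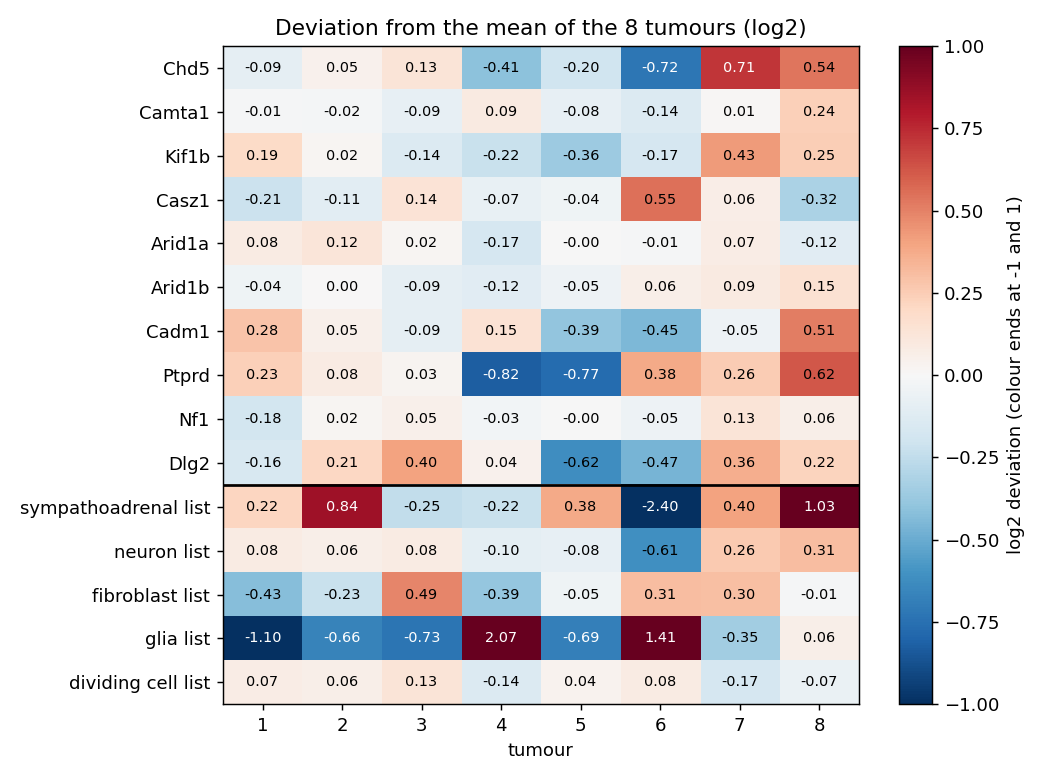
Deviation of each of the 10 genes (upper rows) and of the mean of 5 marker lists (lower rows) from its mean over the 8 tumours (columns), in log2 units, with colour ending at -1 and 1. Tumour 6 combines low Chd5 (-0.72) with high Casz1 (0.55) and a sympathoadrenal list at -2.40, while the widest deviation among Arid1a, Arid1b and Nf1 is -0.18.

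The third comparison uses gene order. Of the 10 genes, 6 lie on mouse chromosome 4, in the order Ptprd, Arid1a, Casz1, Kif1b, Camta1 and Chd5, with 133 detected genes between Arid1a and Casz1 and between 4 and 18 from each of Casz1, Kif1b and Camta1 to the next. Cadm1 lies on chromosome 9, Nf1 on 11, Dlg2 on 7 and Arid1b on 17. Gene copies were not measured on these arrays, and whether a tumour had lost the region was not tested. The 173 detected genes from Arid1a to Chd5 had medians between -0.062 (tumour 5) and 0.041 (tumour 6), as log2 deviations from the mean of the 8 tumours. The 796 detected genes of chromosome 4 had medians between -0.044 (tumour 5) and 0.029 (tumour 6). This was the second smallest range (0.073) of the 19 chromosomes compared (1 to 17, 19 and X), of which chromosome 13 had the widest (0.58, from -0.24 in tumour 7 to 0.34 in tumour 3). With arrays centred on their median or quantile normalized again the range of chromosome 4 was the smallest of the 19 (0.121 and 0.104). A loss shared by all 8 tumours would not show in such deviations. Chromosomes 18 and Y were left out of the comparison, so the ranks hold only among these 19.

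Each candidate was then set against the median of the 20 nearest detected genes on either side. None of the 10 relations passed, and none had an unadjusted p under 0.05 (lowest adjusted exact permutation p = 0.534). By Spearman's rho, Arid1b alone had an unadjusted exact permutation p under 0.05 (0.0279, adjusted p = 0.279). Its position near the end of chromosome 17 left 24 neighbours. The low Ptprd levels of tumours 4 and 5 stood beside neighbour medians of 0.018 and -0.16. Tumour 5 had the lowest neighbour median for Ptprd, Casz1 (-0.11), Kif1b (-0.089) and Camta1 (-0.050), but not for Arid1a and Chd5. Chd5 in tumour 6 was -0.72 from its mean, and the median of its neighbours there was 0.037. The neighbours of Nf1 ranged more widely, from -0.19 in tumour 1 to 0.17 in tumour 6. Nf1 itself was at -0.18 in tumour 1, its lowest, but at -0.054 in tumour 6, and in tumour 7, where it was highest (0.13), its neighbours were at -0.15. Over the 8 tumours r was 0.025 (exact permutation p = 0.955) and rho -0.17 (exact permutation p = 0.703). Casz1, Kif1b, Camta1 and Chd5 share neighbours, 34 of 40 between Casz1 and Kif1b, so their relations are not independent.

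**Figure D5:**
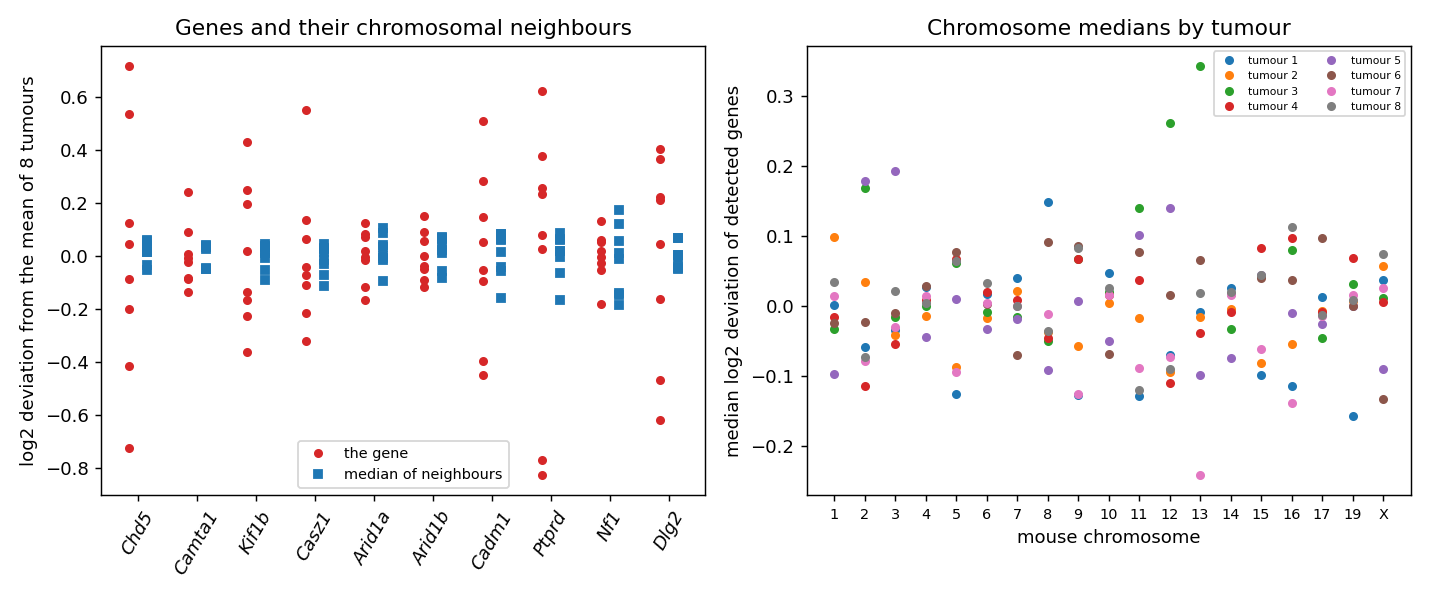
Left, log2 deviations of each gene (red) and of the median of its neighbours (blue) in the 8 tumours. Right, median log2 deviation of the detected genes of chromosomes 1 to 17, 19 and X by tumour; chromosome 4 spans -0.044 to 0.029, against -0.24 to 0.34 for chromosome 13.

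Other genes of the same regions and pathways were read from fixed lists, without a test of any list. Of the other 1p36 counterparts 12 of 15 measured genes were detected, beside 57.3% of all genes. The exceptions were the p53 relative Trp73 (5.65 ± 0.24, SD, n = 8), Ajap1 (5.01 ± 0.37) and the ephrin receptor gene Epha2 (4.80 ± 0.18). Id3, an inhibitor of helix-loop-helix transcription factors, had the largest SD of the list (0.82), with tumours 4 and 6 (7.78 and 7.002) above the other 6 (5.36 to 6.12). It was the only 1 of the 12 above the SD limit, beside 14.6% of detected genes. Pgd, an enzyme of the pentose phosphate pathway, ranged from 9.18 to 9.88 and Errfi1, a feedback inhibitor of the EGF receptor, from 7.11 to 7.73.

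Of the 11q counterparts 10 of 10 were detected, beside 57.3% of all genes, and 0 exceeded the SD limit, beside 14.6% of detected genes. Ncam1, a neural adhesion molecule, ranged from 10.63 in tumour 6 to 12.04 in tumour 8, the tumours in which Cadm1 was lowest and highest. Chek1, a DNA damage checkpoint kinase, was lowest in tumour 7 (7.61) and highest in tumour 6 (8.75). The histone methyltransferase gene Kmt2a was lowest in tumour 4 (9.003) and highest in tumour 7 (9.87). All 5 genes of the 9p list were detected, beside 57.3% of all genes, and 2 exceeded the limit, beside 14.6% of detected genes. Cdkn2a, which encodes the cell cycle inhibitor p16 and the p53 activator Arf, was at 8.01 in tumour 6 and between 6.26 and 7.003 in the others. The gene next to it, Mtap, an enzyme of methionine salvage that is often deleted together with Cdkn2a in human tumours, was also highest in tumour 6 (10.19) and ranged down to 8.79. Smarca2, an ATPase of the BAF complex, ranged from 6.89 to 7.97.

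All 24 measured genes of the BAF complex were detected, beside 57.3% of all genes. Of them 1, Phf10, exceeded the SD limit, beside 14.6% of detected genes. The median SD of the complex was 0.16, against 0.23 for all detected genes. Phf10, which marks the PBAF form of the complex, was at 9.98 in tumour 6 and between 8.62 and 9.20 in the others, and the subunit gene Smarcd2 had 7.04 in tumour 8 and 8.19 in tumour 6. All 20 CHD and NuRD genes were detected, beside 57.3% of all genes, with a median SD of 0.18. Chd5 was the 1 of them above the limit, beside 14.6% of detected genes. Chd7 (9.23) and Chd1 (9.30) were highest in tumour 6, where Chd5 was lowest, and Chd9 ranged from 8.36 in tumour 5 to 9.26 in tumour 1.

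Of the Ras inhibitors, Nf1 included, 15 of 17 measured genes were detected, beside 57.3% of all genes. Of those 15, 0 exceeded the SD limit, beside 14.6% of detected genes. Rasa3, another GTPase activating protein, ranged from 7.54 (tumour 5) to 8.70 (tumour 4), Spry1, a feedback inhibitor of receptor tyrosine kinase signalling, from 7.69 to 8.67, and Spred3 from 6.72 to 7.68. Rasal1 (5.48 ± 0.14, SD, n = 8) and Spry3 (4.97 ± 1.11) were not detected, and the SD of Spry3 was above the limit. Of the Ras activators 9 of 9 measured genes were detected and 0 exceeded the limit, beside the same shares. The kinase genes Map2k1 and Braf and the exchange factor gene Sos2 varied most, with SDs of 0.33, 0.25 and 0.22.

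Among the closest relatives of the candidates 11 of 11 measured genes were detected, beside 57.3% of all genes. Cadm3, a neuronal relative of Cadm1, was the 1 above the SD limit, beside 14.6% of detected genes. It ranged from 6.28 in tumour 5 to 8.32 in tumour 8. Kif1a, the axonal motor most like Kif1b, ranged from 9.98 in tumour 6 to 11.19 in tumour 8. Dlg4, which encodes the synaptic scaffold PSD-95, was at 7.59 in tumour 1 and between 8.45 and 8.70 in the other 7. Of 9 postsynaptic partners of Ptprd 3 were detected, all of the Slitrk family of adhesion molecules, beside 57.3% of all genes. These 3 exceeded the SD limit, beside 14.6% of detected genes, and so did Slitrk4, Slitrk6 and Il1rap, which were not detected. Slitrk1 was lowest in tumour 5 (6.84), where Ptprd was at 5.70, whereas Slitrk5 (6.94) and Slitrk3 (5.25) were lowest in tumour 8, where Ptprd was highest.

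The genes most like Ptprd, Chd5 and Dlg2 over the 8 tumours were sought among all other detected genes by Pearson's r. For Ptprd these were Mark1, Epb41l3 and Gga2 (r of 0.98, 0.98 and 0.97), for Chd5 they were Slc25a51, Armcx4 and Chd2, a relative of Chd5 (0.98, 0.98 and 0.98), and for Dlg2 they were Dgke, Edem1 and Stk17b (0.96, 0.95 and 0.93). With 8 tumours and 12699 detected genes such values are usual: the median over all detected genes of the r with the most similar other gene was 0.97.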

How the data were processed

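Trizol-extracted, biotin-labelled total RNA of 8 tumours was hybridised to Affymetrix arrays, 1 per tumour. The authors deposited 1 log2 level for each probe set, produced with RMA (background correction, quantile normalization and probe set summary) and Partek 6.5; these tool names come from, and are listed without their roles in, the submitters' processing notes. That the scale is log2 follows from the range (2.07 to 13.61). Annotation, filters and genome build: not given in the sources used here. Therefore gene order came from a GRCm38.p6 gene table and coordinates are printed only for the RefSeq promoter windows of that build. Of 41345 probe sets, 23521 have 1 symbol, 1814 several and 16010 are unnamed here, and 22180 genes were read. Of 12699 detected genes, 12621 had a chromosome and position in the gene table.

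Levels minus the array's background were tested against 0 with limma 3.58.1 under R 4.3.3 (trend and robust prior). Spread was described by the SD. Relations used exact permutation of 40320 pairings, two-sided, with Benjamini-Hochberg adjustment, in Python 3.11.15 with numpy 2.4.6, and the scripts were tested on simulated data. Named are the 10 candidates, the 3 detected genes with the largest SD of each pathway list, the 3 genes most like each of the 3 most variable candidates, and marker genes. Undetected list genes, named as exceptions, were chosen after their values were seen. The candidates and lists were chosen with earlier results of these data known. Alternatives were averaging a gene's probe sets, arrays centred or quantile normalized again, other background levels, a filter on low genes, another SD limit, 10 or 50 neighbours, and leaving out each tumour.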

Additional observations from a re-analysis of the deposited data

Results flagged for a closer look

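None of the 10 candidates had a tumour standing apart from the other 7 by the gap criterion for 8 samples (a gap to the nearest tumour above 0.526 of the range), but 7 of 51 other genes checked did. Those 51 are the named and the undetected genes of the pathway lists, the genes most like a candidate and the genes used to check the labels. The other genes of the marker lists were not checked. The criterion marks about 1 group in 20 by chance, but many of these genes were named for a large SD, which an outlying tumour raises, so that rate does not apply to them. Tumour 6 was highest for Cdkn2a (8.01, next 7.003), Phf10 (9.98, next 9.20), Chd1 (9.30, next 8.78) and Chd7 (9.23, next 8.61). Dlg4 was lowest in tumour 1 (7.59, next 8.45). Slitrk5 was lowest in tumour 8 (6.94, next 8.07). Dbh was lowest in tumour 6 (5.72, next 9.87).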

How the results depend on the processing

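Detection held under all 14 alternatives for 7 candidates. Against the 99th percentile of receptor probe sets, Casz1 (-0.50), Ptprd (-0.13) and Dlg2 (-0.61) lay below background, and limma called 7 of 10 genes; under the other 13 it called 10 of 10. The count of candidates above the SD limit, 2, became 1 with the mean of all probe sets, 4 with the limit at the 95th percentile, and 1 to 2 without each tumour in turn. The count of relations with marker lists that passed, 1, became 0 with the mean of all probe sets, where Chd5 averages probe sets that disagree (r = 0.86, exact permutation p = 0.00489, adjusted p = 0.122), and 0 to 1 without each tumour. With 7 tumours fewer pairings exist, so the smallest possible p is larger. The count of pairs that passed, 0, ran from 0 to 2 without each tumour; Camta1 and Cadm1 passed without tumour 1 (r = 0.94, adjusted exact permutation p = 0.0357) and Casz1 and Cadm1 without tumour 5 (r = -0.97, adjusted exact permutation p = 0.0268). No relation with neighbours passed under any alternative run. No paired analysis was possible because the labels give 1 group.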
